A study of Mus musculus with 14 samples.

Results

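The cytokine receptor chains Il2ra, Il2rb, Il2rg, Il7r and Il4ra, the kinases Jak1 and Jak3 and the transcription factors Stat3, Stat5a and Stat5b were followed in 14 mouse thymic lymphomas. The members were chosen by name, and Il2ra and Stat5b were already known from these data to vary widely between tumours. The arrays held 143 probe sets that belong to 9 of the 10 genes alone, out of 179496 probe sets and 15803 genes with a single symbol. Il2rb had no probe set annotated to it alone and was not analysed here.

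The tumours came from 2 Sleeping Beauty models of T-ALL, acute leukaemia of T lymphoblasts, 7 from Vav-SB mice and 7 from CD4-SB mice. All 14 tumours arose with an active Sleeping Beauty transposon system, in which DNA elements jump in the genome and change the genes they land in or near. The model names refer to regulatory elements that start recombination, Vav in blood-forming cells from early stages and Cd4 in later thymocytes. Normal thymus was not analysed here, so every comparison is between 2 kinds of tumour. The labels state no age or sex of the mice.

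Cytokine receptors of this family have no enzyme of their own. When interleukin 2, 4 or 7 or a related cytokine brings the chains together, the kinases JAK1 and JAK3, bound to the chains' inner tails, phosphorylate the receptor and the STAT proteins that dock there, and STATs then enter the nucleus and switch on genes. Il2rg encodes the common gamma chain that all these receptors share. Interleukin-7 signals keep early thymocytes alive, and Il2ra (CD25) marks a stage of immature thymocytes that lack CD4 and CD8, as well as activated and regulatory T cells. Mutations that activate this pathway are known in human T-ALL.

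The promoters of Il2ra and Il7r, the 2 receptor genes among the 9 measured that varied most between tumours, are printed because both genes are described below tumour by tumour. Each sequence runs from 250 bases before to 50 bases after the RefSeq start of the gene in assembly GRCm38.p6. Matches to the palindrome TTCNNNGAA, to which STAT proteins bind, are in capitals.
Il2ra promoter, chr2:11642542-11642841, plus strand: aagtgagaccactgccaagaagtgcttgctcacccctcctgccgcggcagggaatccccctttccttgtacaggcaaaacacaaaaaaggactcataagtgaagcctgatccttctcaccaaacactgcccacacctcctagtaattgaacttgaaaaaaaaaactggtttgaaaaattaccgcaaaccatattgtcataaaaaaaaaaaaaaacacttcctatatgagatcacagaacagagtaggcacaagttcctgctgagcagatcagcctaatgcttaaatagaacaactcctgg
Il7r promoter, chr15:9529827-9530126, minus strand: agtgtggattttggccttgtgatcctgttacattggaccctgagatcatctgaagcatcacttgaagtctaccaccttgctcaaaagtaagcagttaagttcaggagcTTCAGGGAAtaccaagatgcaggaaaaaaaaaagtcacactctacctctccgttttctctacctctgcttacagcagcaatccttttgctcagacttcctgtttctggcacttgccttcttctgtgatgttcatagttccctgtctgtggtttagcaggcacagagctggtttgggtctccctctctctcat
Il7r held 1 match to TTCNNNGAA, starting at position -142 from the gene's start, and Il2ra held 0. The palindrome reads the same on both strands, and 8.30% of 32851 mouse promoters of this length in RefSeq hold it. Of the 11 promoter windows of the 9 genes, that of Il7r was the only one with a match. The spacing that STAT6 binds, TTC and GAA with 4 bases between them (6.95% of promoters), and the AP-1 motif TGANTCA (7.81%), both also the same on both strands, had 0 matches in the 11 windows. These are matches of letters in short windows and not measured binding.

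Levels are log2 values averaged over a gene's probe sets, each of which covers mostly 1 exon. The median level over all genes was 7.20, and 20% of genes lay below 5.90. T lineage markers (8 of 9 measured) averaged 10.45 to 10.89 in Vav-SB tumours and 9.72 to 10.53 in CD4-SB tumours. Some markers of other cells differed between the models. The mean over 11 myeloid markers ran from 7.87 to 8.74 in Vav-SB tumours and from 8.77 to 9.90 in CD4-SB tumours, and 7 of the 11 were lower in Vav-SB. Of all genes, 7.18% were called lower and 7.28% higher in Vav-SB. The 10 measured genes listed for double-positive thymocytes, the stage with both CD4 and CD8, were all higher in Vav-SB. How specific each is to that stage was not tested. Averaged over all tumours, 2 of 9 B cell markers (Cd79a and Ms4a1) and 4 of 11 NK or cytotoxic markers (Ncr1, Klrb1c, Klrk1 and Gzmb) had levels in the lowest 20% of genes. The mean over the B cell markers had a median of 6.81 in Vav-SB tumours and 8.15 in CD4-SB tumours, and the mean over the NK or cytotoxic markers one of 6.51 in Vav-SB tumours and 6.91 in CD4-SB tumours. Some CD4-SB tumours share the first number of their titles (replicates 1 and 2 one number, replicates 5, 6 and 7 another), and the labels do not say what it means.

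Of the 9 genes, Il4ra and Jak3 were lower in Vav-SB tumours and 0 were higher at an adjusted p of 0.05 in limma. Of all genes, 14.5% were called in either direction, 7.18% lower and 7.28% higher in Vav-SB. Il2ra had the largest difference of the 9, 2.05 on the log2 scale, without passing the test, and the other 6 genes differed by -0.22 to 0.36. No gene of the set separated the models, against 4.04% of all genes. The median of the 9 differences was -0.21 and that of all genes 0.0043. Because these are pieces of whole tumours, fewer cells of a type cannot be told apart from less RNA per cell.

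**Figure D1:**
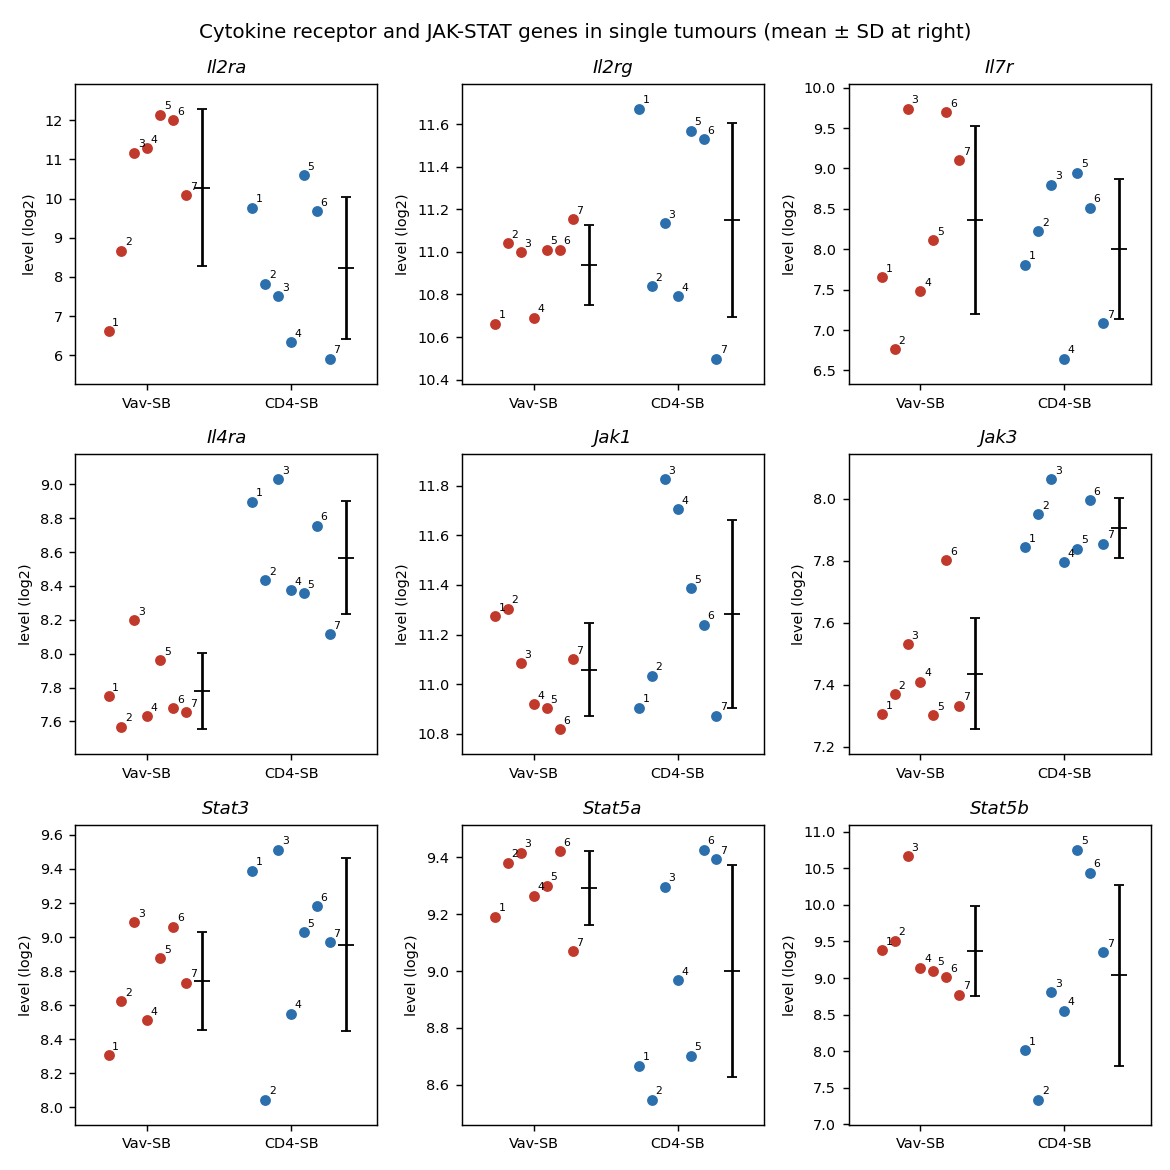
Levels of the 9 genes by tumour (log2, vertical axis), one panel per gene, with Vav-SB tumours left of CD4-SB tumours, replicate numbers beside the points and bars for mean and SD (n = 7 each). Il2ra spans 5.91 to 12.15, and Il4ra and Jak3 are lower in Vav-SB with 1 tumour of each model in the overlap.

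Il2ra, the alpha chain that gives the interleukin-2 receptor its high affinity, varied widely between single tumours of both models. Vav-SB tumours had levels of 6.62, 8.67, 11.17, 11.29, 12.15, 12.01 and 10.08 in replicates 1 to 7. CD4-SB tumours had 9.76, 7.83, 7.51, 6.34, 10.60, 9.68 and 5.91. Vav-SB replicates 3, 4, 5 and 6 were above every CD4-SB tumour, CD4-SB replicates 4 and 7 were below every Vav-SB tumour, and the other tumours overlapped. The lowest and the highest of the 14 tumours differed by 6.24 on the log2 scale, or 75.5-fold. Its SD within models, 1.92, ranked 6 among 15803 genes, whose median SD was 0.24. Because Il2ra was picked out for varying widely in these same tumours, this rank describes the gene and is no test. Vav-SB averaged 10.28 ± 2.01 and CD4-SB 8.23 ± 1.81 (SD, n = 7 each), a difference of 2.05 (SE 0.92, 95% interval 0.08 to 4.02, 4.15-fold). Its p in limma was 0.0426 before and 0.162 after adjustment. Without Vav-SB replicate 1, the lowest of its model, the difference was 2.66 and the adjusted p 0.0474. That was the only left-out tumour that gave a call. Without CD4-SB replicate 7 the difference was 1.66, and over all left-out tumours the adjusted p reached 0.285.

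The 10 probe sets of Il2ra ordered the tumours alike, with a median correlation of 0.968 between pairs of them across tumours. Vav-SB replicates 5 and 6 were among the 3 highest tumours in 10 of 10 probe sets, and CD4-SB replicates 4 and 7 among the 3 lowest in 10 of 10. Vav-SB replicate 1 was among the 3 lowest in 8. One probe set, 4961953, was high for the gene in tumours with low Il2ra. It was at 9.59 in Vav-SB replicate 1, against 9.24 and 9.72 in CD4-SB replicates 4 and 7. These lie 2.18, 2.18 and 3.24 above the values expected from the medians of probe set and tumour. Probe set 5026230 departed from its expected value by 2.38 in CD4-SB replicate 7, and 5238557 by -2.27 in Vav-SB replicate 1. Values at least 2 away from that expectation made up 0.3% of the 2002 values of the set and 0.21% of values over all genes with 3 or more probe sets. The difference between the models was 1.17 in probe set 4961953 and 2.51 in the probe set with the largest difference, 4355552. CD4-SB replicates 5 and 7, which share a title number, had the highest and the lowest Il2ra of their model.

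**Figure D2:**
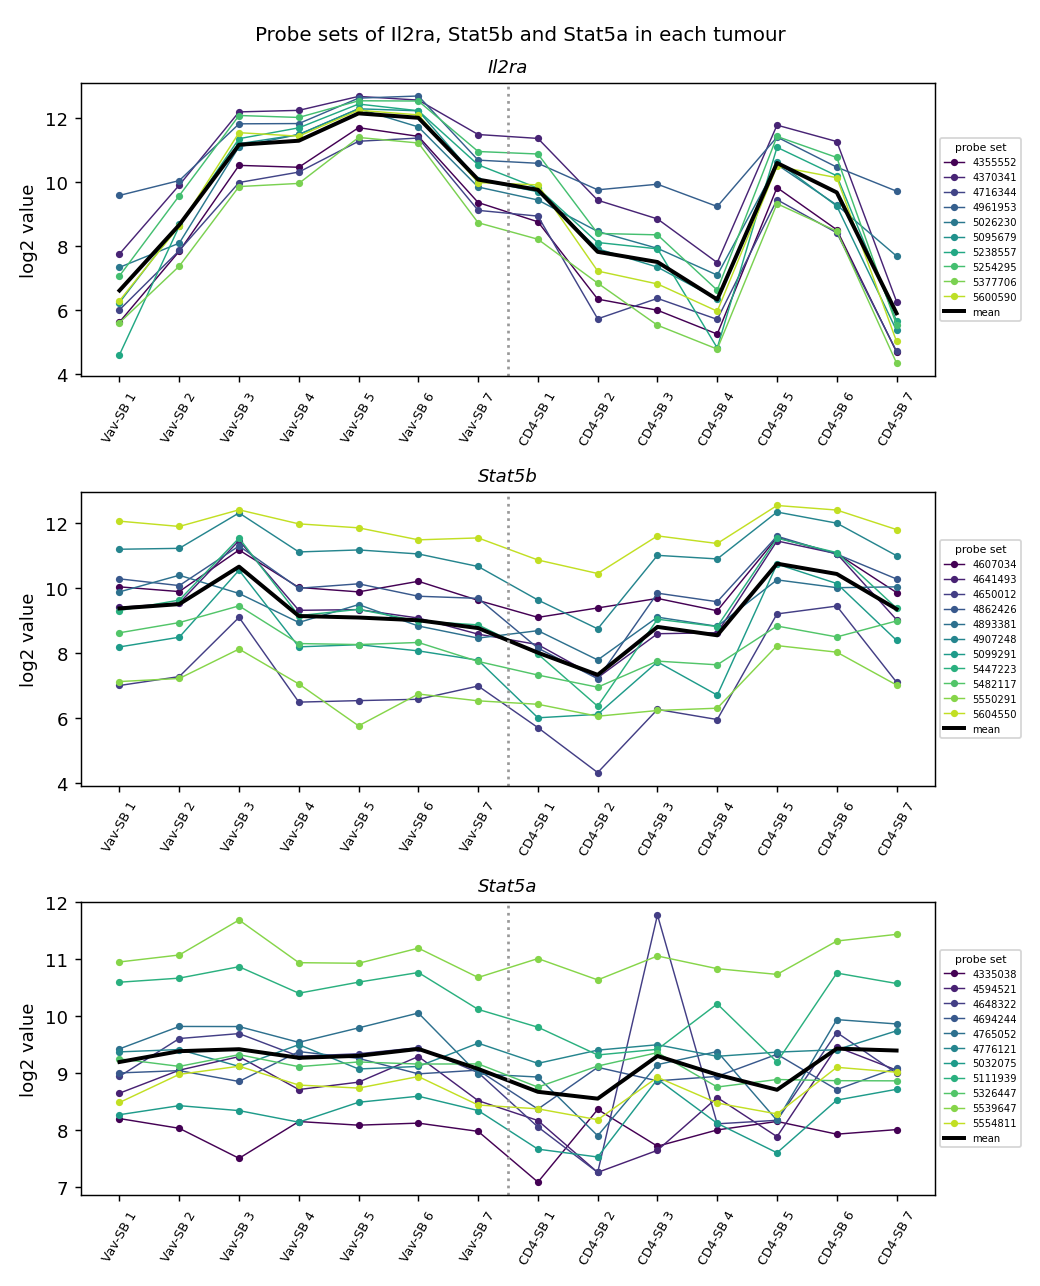
Level of each probe set (thin lines, log2, vertical axis) and their mean (thick black line) in each tumour (horizontal axis, Vav-SB left of CD4-SB) for Il2ra, Stat5b and Stat5a. The lines of Il2ra and of Stat5b go up and down together over the tumours, and 1 Stat5a probe set is at 11.78 in CD4-SB replicate 3.

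Il7r, the chain that binds interleukin-7, also varied widely between tumours of both models. Vav-SB tumours ran from 6.76 (replicate 2) over a median of 8.11 to 9.74 (replicate 3), and CD4-SB tumours from 6.64 (replicate 4) over a median of 8.23 to 8.94 (replicate 5). Vav-SB replicates 3, 6 and 7, at 9.74, 9.69 and 9.10, were above all CD4-SB tumours, and replicates 3 and 6 were among the 3 highest in 9 of 9 probe sets. The 14 tumours spanned 8.55-fold, and the SD within models ranked 226 among all genes. The difference was 0.36 (SE 0.50, 95% interval -0.70 to 1.42, adjusted p = 0.703). It was 0.13 without Vav-SB replicate 3 and 0.63 without Vav-SB replicate 2.

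Il2rg, the common gamma chain, varied less between tumours than Il2ra and Il7r, with an SD within models of 0.35 against 1.92 and 1.03. Vav-SB tumours lay between 10.66 and 11.15 (median 11.01) and CD4-SB tumours between 10.50 and 11.67 (median 11.13). CD4-SB replicates 1, 5 and 6 were above all Vav-SB tumours, and replicate 7 was below all of them. These 3 high tumours were among the 3 highest in 11, 11 and 9 of the 11 probe sets. The difference was -0.21 (SE 0.18, 95% interval -0.58 to 0.16, adjusted p = 0.490), and it was -0.32 without CD4-SB replicate 7 and -0.12 without CD4-SB replicate 1.

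Il4ra, the chain that binds interleukin-4 and pairs with Il2rg or Il13ra1, was lower in Vav-SB tumours. They had levels of 7.75, 7.57, 8.20, 7.63, 7.96, 7.68 and 7.65, against 8.90, 8.44, 9.03, 8.37, 8.36, 8.76 and 8.11 in CD4-SB tumours. The groups overlapped only where Vav-SB replicate 3 exceeded CD4-SB replicate 7, so 6 tumours of each model lay beyond the whole of the other. Vav-SB averaged 7.78 ± 0.22 and CD4-SB 8.57 ± 0.33 (SD, n = 7 each), a difference of -0.79 (SE 0.15, 95% interval -1.10 to -0.48, 1.73-fold, adjusted p = 0.00278). The call held with any single tumour left out, with adjusted p up to 0.00762. With the mean of 48 myeloid, dendritic, B cell, stromal, endothelial and epithelial markers as a covariate, the difference was -0.34 and its adjusted p 0.322. That mean ran from 7.32 to 7.99 in Vav-SB tumours and from 7.69 to 8.70 in CD4-SB tumours, and its part in the result was not tested.

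Of the 18 probe sets of Il4ra, 11 were lower and 0 higher in Vav-SB in the fit over all probe sets, and 4 separated the models. Of all probe sets, 8.52% were called, 3.99% lower and 4.53% higher in Vav-SB. The largest difference was in probe set 5178625, at 9.35 ± 0.38 in Vav-SB tumours and 10.90 ± 0.41 in CD4-SB tumours, a difference of -1.55 (adjusted p = 0.000326). The probe sets of the gene were unequal (limma's diffSplice, F test, adjusted p = 2.04e-09, 10.6% of genes called). Probe sets 4452670, 5022334 and 5201483 differed from the rest of the gene (1.33% of all probe sets called). Their differences were 0.03, 0.01 and 0.06, with adjusted p of 0.0281, 0.0329 and 0.0183 against the rest. Probe sets 4452670 and 5201483 are dim, with means between 5.58 and 5.79, while 5022334 was at 7.90 ± 0.32 in Vav-SB tumours and 7.89 ± 0.23 in CD4-SB tumours.

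Jak1, the kinase that binds the cytokine-specific chains, showed no difference past the threshold. Vav-SB tumours ran from 10.82 to 11.30 (median 11.09) and CD4-SB tumours from 10.87 to 11.83 (median 11.24), a difference of -0.22 (SE 0.15, 95% interval -0.55 to 0.10, adjusted p = 0.380), which was -0.13 without CD4-SB replicate 3. CD4-SB replicates 3 and 4 held the highest levels, 11.83 and 11.71, and were among the 3 highest tumours in 25 of 25 probe sets.

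Jak3, the kinase that binds the common gamma chain, was lower in Vav-SB tumours. They had levels of 7.31, 7.37, 7.53, 7.41, 7.30, 7.80 and 7.33, against 7.84, 7.95, 8.06, 7.80, 7.84, 7.99 and 7.85 in CD4-SB tumours. The only overlap was that of Vav-SB replicate 6 with CD4-SB replicate 4, which both round to 7.80. Vav-SB averaged 7.44 ± 0.18 and CD4-SB 7.91 ± 0.10 (SD, n = 7 each), a difference of -0.47 (SE 0.09, 95% interval -0.65 to -0.29, 1.38-fold, adjusted p = 0.00272). With any single tumour left out the adjusted p was at most 0.00816. With the marker covariate the difference stayed near that size, at -0.40, and its SE grew to 0.14 (adjusted p = 0.138). The 2 further Jak3 probe sets annotated also to Insl3 were not used.

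In Jak3, 9 of 26 probe sets were lower in Vav-SB, as were 3.99% of all probe sets, and 1 separated the models. The probe sets were unequal here too (F test, adjusted p = 7.28e-11). Probe set 4333965 was at 7.02 ± 0.63 in Vav-SB tumours and 8.43 ± 0.28 in CD4-SB tumours, a difference of -1.41, and it differed from the rest of the gene with an adjusted p of 0.000446. Probe sets 5289722 and 5492344 followed with differences of -1.21 and -1.24 (adjusted p of 0.0147 and 0.00976 against the rest). The highest difference was 0.13, in probe set 4318692. The order of the probe sets along either gene was not used, so these values do not place the unequal parts within the transcript.

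**Figure D3:**
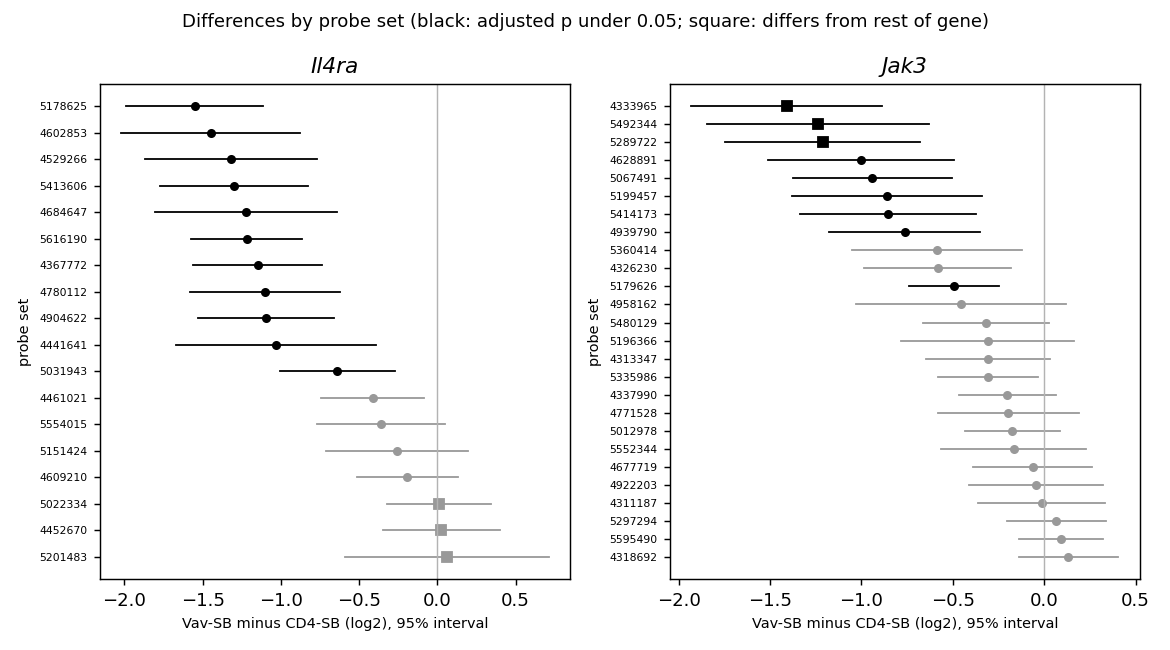
Difference between the models, Vav-SB minus CD4-SB (log2), for each probe set of Il4ra and of Jak3, ordered by its value, with 95% intervals, black where the adjusted p is under 0.05. Squares stand apart from the other probe sets of the gene in diffSplice, and they lie at 0.01 to 0.06 for Il4ra and at -1.41 to -1.21 for Jak3.

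Stat3, the STAT that interleukin 6 and related cytokines activate, ran from 8.31 to 9.09 (median 8.73) in Vav-SB tumours and from 8.04 to 9.51 (median 9.03) in CD4-SB tumours. The difference was -0.21 (SE 0.21, 95% interval -0.65 to 0.23, adjusted p = 0.565), and -0.36 without CD4-SB replicate 2 and -0.12 without CD4-SB replicate 3. CD4-SB replicate 2 had the lowest level and was among the 3 lowest in 19 of 22 probe sets, and CD4-SB replicate 3 had the highest and was among the 3 highest in 20.

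Stat5a and Stat5b encode the closely related STATs that interleukins 2 and 7 activate. Both genes lie on chromosome 11 and share much of their sequence, so how far probes of one also read the other is uncertain. Stat5a lay between 9.07 and 9.42 (median 9.30) in Vav-SB tumours and between 8.55 and 9.43 (median 8.97) in CD4-SB tumours. CD4-SB replicates 1, 2, 4 and 5 were below all Vav-SB tumours. The difference was 0.29 (SE 0.14, 95% interval -0.01 to 0.60, adjusted p = 0.203). One probe set of Stat5a, 4648322, was at 11.78 in CD4-SB replicate 3, which is 2.55 above the value expected from the medians of probe set and tumour.

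Stat5b had a wider span. Vav-SB tumours had levels of 9.38, 9.51, 10.66, 9.14, 9.10, 9.01 and 8.77, and CD4-SB tumours 8.02, 7.34, 8.81, 8.55, 10.75, 10.44 and 9.36. Vav-SB replicate 3 and CD4-SB replicates 5 and 6 were high, each among the 3 highest in 10, 10 and 9 of the 11 probe sets. CD4-SB replicates 2 and 1 were among the 3 lowest in 11 and 10. CD4-SB replicates 5 and 6 share a title number with replicate 7, at 9.36, and replicates 1 and 2 share another. The high and low CD4-SB tumours may therefore not be independent. The 14 tumours spanned 10.7-fold and the SD within models ranked 269 among all genes, a rank that is likewise no test. Vav-SB averaged 9.37 ± 0.62 and CD4-SB 9.04 ± 1.24 (SD, n = 7 each), a difference of 0.33 (SE 0.48, 95% interval -0.68 to 1.34, adjusted p = 0.716). The difference was 0.05 without CD4-SB replicate 2 and 0.62 without CD4-SB replicate 5.

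In the 7 genes other than Il4ra and Jak3, 0 probe sets were called between the models and 0 differed from the rest of their gene. Differences of single probe sets ran from -0.40 to 0.19 in Il2rg, from 0.21 to 0.64 in Il7r and from -0.67 to -0.08 in Jak1. In the STAT genes they ran from -0.46 to 0.21 in Stat3, from -0.11 to 0.68 in Stat5a and from 0.04 to 0.53 in Stat5b.

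**Figure D4:**
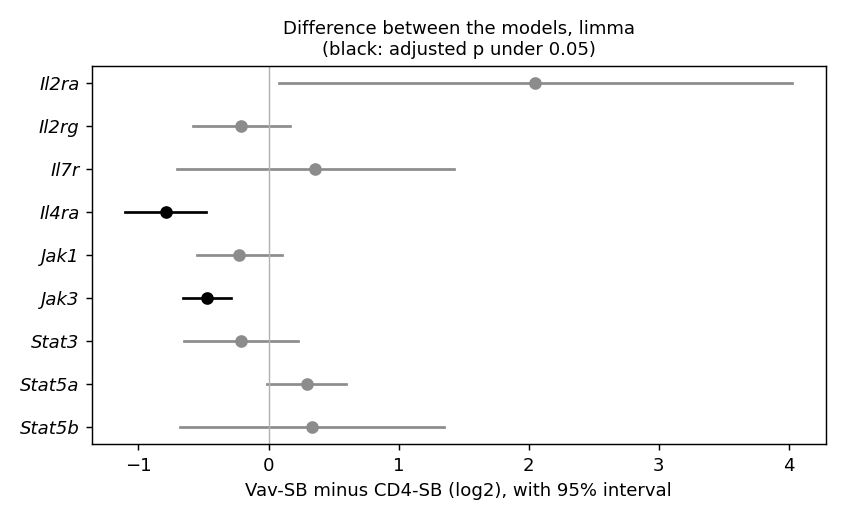
Difference between the models, Vav-SB minus CD4-SB (log2), for the 9 genes with 95% intervals. The intervals of Il4ra and Jak3 lie below 0 and pass the test over all genes, while that of Il2ra, 0.08 to 4.02, does not.

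The spread between tumours of one model was compared for every gene. For Stat5b, Stat5a and Il2rg the SD in Vav-SB was 0.62, 0.13 and 0.19, and in CD4-SB 1.24, 0.37 and 0.46. The planned test of plain deviations, which recovered no planted change on simulated data, called 0 genes, with 5.49% at an unadjusted p under 0.05. A limma test of the log2 deviations, chosen after seeing the data, called 3.91% of all genes (17.7% unadjusted) and 0 of the 9. Its adjusted p was 0.110 for Stat5a, 0.130 for Stat5b, 0.263 for Il2rg and 0.939 for Il2ra.

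The other 8 genes were set against the Il2ra level of the same tumour, with the mean of each model removed. Il2rg was the closest, with r = 0.69 over 14 tumours (permutation p = 0.0057, Spearman's rho 0.70, p = 0.0105). The r was 0.38 within Vav-SB and 0.94 within CD4-SB, 0.57 without the 2 tumours farthest from the median of Il2ra (CD4-SB replicates 4 and 7) and 0.63 with 1 tumour per title number. Il7r had r = 0.59 (p = 0.0364, rho 0.54, p = 0.0548), 0.51 within Vav-SB and 0.71 within CD4-SB, and 0.47 without those 2 tumours. Over all genes, none passed limma with Il2ra as a term. The adjusted p was 0.368 for Il2rg and 0.376 for Il7r, and 11.6% of genes had an unadjusted p under 0.05. Of the 8 genes set against Il2ra, Jak1 had r = -0.37 (p = 0.192), with -0.89 within Vav-SB and -0.13 within CD4-SB. Stat5b had r = 0.23 (p = 0.431). With Stat5b as the term in place of Il2ra, 0 genes were called, and the share of genes under 0.05 before adjustment was 3.84%.

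**Figure D5:**
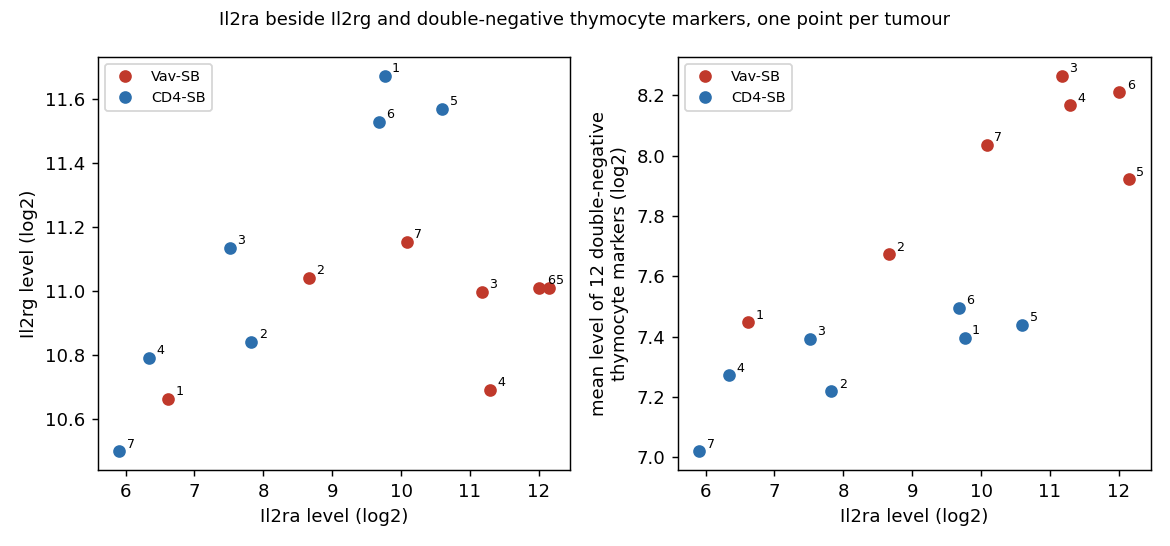
Il2rg level (left) and mean level of 12 double-negative thymocyte markers (right), both log2, against the Il2ra level (log2, horizontal axis), with 1 numbered point per tumour coloured by model. Within Vav-SB and CD4-SB, r was 0.38 and 0.94 for Il2rg and 0.87 and 0.81 for the markers.

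The mean of the 12 double-negative thymocyte markers, genes listed for the stage before CD4 and CD8 appear, ran from 7.45 to 8.26 in Vav-SB tumours and from 7.02 to 7.50 in CD4-SB tumours. The genes did not share a direction between the models. Of the 12, 5 (Notch1, Notch3, Ptcra, Hes1 and Dtx1) were called higher in Vav-SB and Cd44 lower (-1.03). Of all genes, 7.28% were called higher and 7.18% lower. Hhex, Bcl11a, Kit and Lyl1, uncalled, differed by -0.50, -0.31, -0.26 and -0.06, and Erg and Nrarp by 1.24 and 0.19. The list mean went with Il2ra at r = 0.82 (permutation p = 0.0006, adjusted over 12 marker lists 0.0078, rho 0.71, adjusted 0.0607). The value was 0.87 within Vav-SB, 0.81 within CD4-SB, 0.82 without the 2 farthest tumours and 0.78 with 1 tumour per title number. Of its 12 genes, 11 had a positive slope, as did 46.5% of all genes, and 0 passed over all genes. Within Vav-SB 1 of the 12 had a negative r and within CD4-SB 5 had one, namely Notch1, Notch3, Ptcra, Nrarp and Hes1. Nrarp and Dtx1, both Notch targets, had r of 0.97 and 0.89 within Vav-SB, and Nrarp -0.45 within CD4-SB. Cd44, an adhesion receptor, had 0.10 within Vav-SB and 0.93 within CD4-SB, and the highest others within CD4-SB were Hhex and Kit, at 0.81 and 0.74. The regulatory or activated T cell markers had r = 0.65 (adjusted permutation p = 0.108), 0.32 within Vav-SB and 0.98 within CD4-SB. The B cell markers had r = 0.58 with the same adjusted p of 0.108, 0.17 within Vav-SB and 0.84 within CD4-SB. The epithelial markers had r = -0.52 (adjusted permutation p = 0.228), -0.54 within Vav-SB and -0.50 within CD4-SB. What part such cells or stages have in the Il2ra level was not tested.

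Of genes whose mean level exceeded the median of all genes, the 5 whose pattern over 14 tumours was most like that of Il2ra were Hdgfl3 (r = 0.91), Pon2 (0.88), Rnf14 (0.86), Sec11c (0.86) and Mllt6 (0.85). The lowest r of these within a model was 0.78, that of Sec11c in Vav-SB. For Stat5b they were Gse1 (0.81), Wfdc18 (0.75), Gapdhs (0.75), Wwtr1 (0.75) and Heg1 (0.74), where Gse1 had r = -0.14 within Vav-SB and 0.91 within CD4-SB. None of these passed limma over all genes, with adjusted p of 0.0550 for Hdgfl3.

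Further genes of the pathway were taken from lists of receptors, ligands, kinases, inhibitors and targets. Of 23 other cytokine receptors measured out of 28, 1 was higher and 3 were lower in Vav-SB, with a median difference of -0.29. Of all genes, 7.28% were called higher and 7.18% lower, the shares to set beside each list. Il12rb2, the signalling chain of the interleukin-12 receptor, averaged 9.59 ± 0.44 in Vav-SB tumours and 6.52 ± 0.62 in CD4-SB tumours, 8.41-fold higher (adjusted p = 5.3e-06), and every Vav-SB tumour was above every CD4-SB tumour. Il13ra1, the partner of Il4ra in the interleukin-13 receptor, averaged 6.38 ± 0.26 in Vav-SB tumours and 7.40 ± 0.63 in CD4-SB tumours, a difference of -1.02 (adjusted p = 0.0109). Il10rb, a shared chain of the interleukin-10 family receptors, differed by -0.62 (adjusted p = 0.0240), and it missed the threshold, with adjusted p up to 0.0503, without Vav-SB replicate 1 or without Vav-SB replicate 4. Il23r, a chain of the interleukin-23 receptor, was at 5.33 to 7.03 in Vav-SB tumours, while CD4-SB replicates 1, 2, 5 and 6 were at 10.60, 10.60, 11.50 and 11.07 and the others at 5.40 to 6.57. Its difference, -3.01 (adjusted p = 0.0474), passed the test only narrowly. Leaving out any Vav-SB tumour, or CD4-SB replicate 1, 2, 5 or 6, raised the adjusted p past the threshold, up to 0.0952, and it was 0.0717 with 1 tumour per title number, 0.0644 with the median over probe sets and 0.0517 with a floor under dim values.

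Of 16 cytokine ligands measured out of 18, Il15, whose receptor also uses Il2rb and Il2rg, was the only one called, against 14.5% of all genes. It averaged 5.75 ± 0.17 in Vav-SB tumours and 6.58 ± 0.51 in CD4-SB tumours, a difference of -0.83 (adjusted p = 0.0103), with every CD4-SB tumour above every Vav-SB tumour, as for 1.53% of all genes. The call of Il15 was lost with bright probe sets only (-0.81, adjusted p = 0.0838). The ligands' median difference was -0.06. Of the other JAK and STAT genes, 5 of 6 were measured and 0 were called, with a median difference of -0.30 and adjusted p of 0.105 to 0.576.

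Among 18 inhibitors of the pathway measured out of 20, 3 were higher in Vav-SB and 1 lower, with a median difference of 0.03. Of all genes, 7.28% were higher and 7.18% lower. Ptprc, which encodes the phosphatase CD45 that can dephosphorylate JAKs, was 1.93-fold higher (difference 0.95, adjusted p = 0.00394), and Cbl, a ubiquitin ligase of signalling kinases, 1.64-fold higher (0.71, adjusted p = 0.00535). Socs5, a suppressor of cytokine signalling, was 1.26-fold higher (0.33, adjusted p = 0.0331). Leaving out Vav-SB replicate 2, 3, 6 or 7, or CD4-SB replicate 2, 4, 6 or 7, raised the adjusted p of Socs5 past the threshold, up to 0.0727. Socs5 also lost the call with the median over probe sets (0.21, adjusted p = 0.341), bright probe sets only (0.164), array weights (0.0646) and 1 tumour per title number (0.173). Pias3, an inhibitor of STAT3, was lower, with a difference of -0.72 (adjusted p = 0.00423).

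Of 15 STAT5 targets measured out of 17, 2 were lower in Vav-SB, as were 7.18% of all genes, with a median difference of -0.06. Ccnd2, the cell cycle protein cyclin D2, averaged 7.88 ± 0.39 in Vav-SB tumours and 9.82 ± 1.18 in CD4-SB tumours, a difference of -1.94 (adjusted p = 0.00816), and Lta, the cytokine lymphotoxin alpha, differed by -0.44 (adjusted p = 0.0232). The call of Lta was lost with the median over probe sets (-0.37, adjusted p = 0.120) and where each title number kept a single tumour (-0.48, adjusted p = 0.0561). Of 10 STAT3 targets measured out of 12, Il23r was the only one called, against 14.5% of all genes, and the median difference was -0.16. Of these 11 called pathway genes, only Il12rb2 passed with the covariate of other cells' markers, with a difference of 3.51 (adjusted p = 0.000559). With the covariate Il13ra1, Il15 and Il10rb differed by -0.01, -0.10 and 0.02, and the part of other cells in these results was not tested.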

How the data were processed

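Exon arrays measured RNA of 14 thymic lymphomas. Per the labels' protocols, total RNA of frozen tumours was amplified into cDNA from a small input, fragmented and biotin-labelled, a step that may not copy all parts of a transcript equally. The deposited table holds 1 value per probe set and tumour, read here as log2 although the log base is not given in the sources used here; values run from 2.03 to 14.03. Per the submitters' processing notes, RMA and Partek were used (versions not given). The medians of the columns ran from 7.46 to 7.50, and a shift of all RNA in a tumour would not show. The number of arrays limits the precision.

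Probe sets with 1 symbol in the platform annotation (179496 of 194293) were averaged per gene, with symbols updated through a RefSeq table of GRCm38.p6 (2014 replaced, 5 unmatched), which gave 15803 genes. Dim genes were kept. The strain label gave the groups and accession order the replicate numbers. The labels do not tie tumours to animals, and p-values cover only the spread among these samples.

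Genes and probe sets were tested with limma 3.58.1 in R 4.3.3, adjusted by Benjamini-Hochberg over all genes or probe sets, at a threshold of 0.05. Unequal probe sets were tested with limma's diffSplice on the 14165 genes with at least 3 probe sets. Associations with Il2ra and Stat5b were fitted with the model as a term, and permutation p-values are two-sided, from 100000 permutations within models. The members, gene lists and tests were chosen with earlier results of these data known. Named are all members, the called genes of each pathway list (at most 6 by adjusted p), the 5 genes most like Il2ra and Stat5b, and for members the probe sets with the highest and lowest difference or past diffSplice.

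On simulated data with planted changes, the gene test recovered 44%, 88%, 98% and 100% of differences of 0.5, 1, 2 and 4 over 15803 genes. The changed genes were drawn at random and kept their own spread, with a median SD of 0.24 over all genes. Il2ra, Il7r and Stat5b, with SDs of 1.92, 1.03 and 0.98, vary far more, so these shares do not apply to them. The spread test on plain deviations recovered 0% and so says nothing, and a log-scale version recovered 28% and 99% of SD ratios of 4 and 30. The diffSplice test recovered 12%, 60%, 96% and 100% of shifts of 0.5, 1, 2 and 4, with 432 calls outside the planted changes among 174421 probe sets. With 50 shifts planted per size, false calls outnumbered true ones, so diffSplice calls of single probe sets are uncertain. The association test recovered 97% of planted slopes of 0.5 with Il2ra and 83% with Stat5b. The slopes fitted with Il2ra were smaller, 0.13 for Il2rg and 0.32 for Il7r, and slopes of that size were not planted.

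The alternatives were the median over probe sets, bright probe sets or genes only, quantile normalization, a floor, array weights, a trended prior, 1 tumour per title number, that number as a random block, a marker covariate, and each tumour left out in turn.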

Additional observations from a re-analysis of the deposited data

Results flagged for a closer look

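In 4 cases 1 tumour lay apart from the other 6 of its model by Dixon's test, which chance alone flags in about 1 of 20 groups. The test was run on the 9 members and the called pathway genes, each in both models, so some flags can come from chance. Stat5b in Vav-SB replicate 3 was at 10.66, with 9.51 in the nearest Vav-SB tumour. The Il10rb level in the same tumour was 8.32, with 7.87 in the nearest. Il23r in Vav-SB replicate 1 was at 7.03, with 5.79 in the nearest Vav-SB tumour. Ccnd2 in CD4-SB replicate 2 was at 7.38, with 9.58 in the nearest CD4-SB tumour.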

How the results depend on the processing

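Over the 9 members and all alternatives other than left-out tumours, 85 comparisons kept their direction and their side of the threshold, 2 lost the call (Il4ra and Jak3, marker covariate) and 3 changed sign. With a tumour left out, 125 kept both and 1 gained a call (Il2ra, 2.66, without Vav-SB replicate 1). Under the marker covariate 397 genes and 0 members were called; Il2rg turned to 0.31 and Stat3 to 0.46, both uncalled, and Il10rb to 0.0247, while Il2ra, Il7r and Stat5b, uncalled too, were at 3.57, 1.52 and 1.17. Stat5b turned to -0.0182 with array weights (adjusted p = 0.985). In these the cause was not tested. With a tumour left out, 1628 to 2518 genes and 2 to 3 members were called. Of 261 comparisons of pathway genes, 220 kept direction and call, 40 lost the call and 1 changed sign. The count of genes associated with Il2ra was 1 with the median over probe sets and 0 to 1 with a tumour left out. The spread test on the log scale, chosen after seeing the data, called 618 genes. The planned version called 0 in limma (5.49% at an unadjusted p under 0.05). With a tumour left out, the planned version called 0 to 112, the most without CD4-SB replicate 5. With 1 tumour per title number the count of spread calls was 128. With bright probe sets only, diffSplice called 1301 probe sets instead of 2356, on fewer probe sets tested. No paired analysis was possible because replicate numbers come from accession order and the models share no title number. Levels near background understate folds.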

Other observations

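Stat5b and Stat5a went together at r = 0.47 over 14 model-centred tumours (permutation p = 0.209), with 0.55 within Vav-SB and 0.46 within CD4-SB. Stat3 had r = 0.48 with Il2ra (permutation p = 0.0881), with 0.77 within Vav-SB and 0.34 within CD4-SB. The slope with Il2ra was positive for 46.5% of all genes, and 11.6% of all genes had an unadjusted p under 0.05 in either direction. By pathway list, it was positive for 20 of 23 other cytokine receptors, 10 of 16 cytokine ligands, 5 of 5 other JAK and STAT genes, 8 of 18 inhibitors, 13 of 15 STAT5 targets and 7 of 10 STAT3 targets. In the same order of lists, 5, 2, 1, 5, 3 and 1 genes had an unadjusted p under 0.05, all with a positive slope except 1 inhibitor, and 0 passed over all genes. Genes of a list can vary together, and whether any list as a set goes with Il2ra was not tested. The target lists do not separate genes that STATs raise from genes they lower.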
